A study of Mus musculus with 11 samples.

Results

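The 8 genes described here are genes of neutrophils and of the chemokines that attract them, measured in the skin of 11 mice. They were chosen by name from the 754 genes of a NanoString panel, with earlier results of these data known. Of the 8, 6 are neutrophil genes (S100a8, S100a9, Camp, Elane, Cxcr2 and Csf3r) and 2 are chemoattractant ligands (Cxcl1 and Cxcl5). The mice were a murine model of chronic graft-vs.-host disease, in which donor immune cells injure the tissues of a transplant recipient, and the design asks how transcripts in the skin differ when the recipient lacks mast cells. All were adult female recipients that received 850 cGy of radiation, 5000000 bone marrow cells and 2000000 splenocytes, and their skin was taken from the nape of the neck 7 weeks later. The syngeneic group (3 mice) and the allo-WT group (3 mice) were C57BL/6j recipients. The allo-MCd group (5 mice) were B6.Cg-KitW-sh/HNihrJaeBsmGlliJ recipients, which carry the W-sh allele of Kit and lack mast cells. Per the methods the donors were LP/J for both allogeneic groups and C57BL/6J for the syngeneic group, whereas the labels give LP/J donor cells for every mouse. No W-sh mice with a syngeneic transplant were measured, so allo-MCd mice differ from syngeneic mice in both recipient genotype and donor. Kit also acts outside mast cells, and W-sh mice are known to have altered myeloid cells before any transplant. The labels do not say whether the mice of a group came from 1 transplant or several.

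Neutrophils are short-lived phagocytes that leave the blood for inflamed tissue. Cells in the tissue, among them keratinocytes, fibroblasts and endothelial cells, release the chemokines Cxcl1 and Cxcl5, and both bind the receptor Cxcr2 on the neutrophil surface. Granule proteins such as Elane and Camp are transcribed mainly while neutrophils mature in the bone marrow, whereas S100a8, S100a9, Cxcr2 and Csf3r remain transcribed in mature cells, and inflamed keratinocytes and monocytes can also make S100a8 and S100a9.

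On GRCm38.p6, S100a8 lies at chr3:90669071-90670034 and S100a9 at chr3:90692630-90695721, 22.6 kb further along. Cxcl5 lies at chr5:90759298-90761625 and Cxcl1 at chr5:90891245-90893121, 130 kb further along. Camp lies at chr9:109847377-109849456, Elane at chr10:79886312-79888216, Cxcr2 at chr1:74153994-74161246 and Csf3r at chr4:126023441-126044975. The 250 bases upstream of the annotated start, as RefSeq gives them, are shown for the pair of calgranulin genes that moved the most and for Cxcl1, a ligand, each read along its gene. The capitals mark matches on either strand to TATAAA (the TATA box), GGAATTTCC (a site read by NF-kB factors), GAGGAA (the core read by PU.1) and TTGCNNAA (a form of the C/EBP site), and in S100a8 a GAGGAA match and TATAAA stand next to each other.
S100a8 (chr3:90668821-90669070, forward strand): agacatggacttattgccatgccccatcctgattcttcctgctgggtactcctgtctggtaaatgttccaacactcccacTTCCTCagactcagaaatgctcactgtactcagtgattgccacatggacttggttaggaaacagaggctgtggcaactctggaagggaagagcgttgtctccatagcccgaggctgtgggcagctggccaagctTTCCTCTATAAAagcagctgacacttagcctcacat
S100a9 (chr3:90695722-90695971, reverse strand): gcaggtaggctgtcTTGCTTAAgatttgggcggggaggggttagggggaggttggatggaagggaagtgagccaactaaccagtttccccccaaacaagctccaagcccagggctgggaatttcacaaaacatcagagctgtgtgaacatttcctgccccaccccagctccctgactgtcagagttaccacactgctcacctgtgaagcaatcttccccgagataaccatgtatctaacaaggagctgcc
Cxcl1 (chr5:90890995-90891244, forward strand): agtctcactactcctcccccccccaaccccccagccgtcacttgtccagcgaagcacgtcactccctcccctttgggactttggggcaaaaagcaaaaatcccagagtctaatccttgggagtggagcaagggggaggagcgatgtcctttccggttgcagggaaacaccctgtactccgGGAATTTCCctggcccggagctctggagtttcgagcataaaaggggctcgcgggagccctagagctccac
S100a8 held TATAAA 30 bases before its start, and 12.4% of 32851 upstream windows of mouse genes held it at any position. GGAATTTCC stood 70 bases before the start of Cxcl1 and anywhere in 0.286% of the windows. S100a9 held TTGCNNAA, as did 9.56% of the windows. GAGGAA was in S100a8, Elane, Cxcr2 and Csf3r, and in 23.3% of the windows. The Csf3r window precedes a RefSeq start that lies 1218 bases inside the span given above, and the other windows end at the edge of their gene. Cxcl5 had no entry. A match is a run of letters and not evidence of binding.

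RNA was counted with color-coded probes and no amplification, and the deposited values are counts that the authors normalized, called normalized counts below. Per mouse, totals lay between 831632 and 1460260 counts. Allo-WT mouse 1 had the lowest total, the largest normalization factor (2.54, with the lowest factor at 0.759) and the weakest positive control, at 3975 counts where the other mice gave 17615 to 33547. Its background, set at 2 SD over the mean of 8 negative controls, was 37.5 normalized counts, and the lowest background of any mouse was 14.3. The scale also differed between groups, since the median gene of a mouse lay at 401 to 456 in syngeneic, 465 to 555 in allo-WT and 241 to 356 in allo-MCd skin. For the 8 genes, comparisons are therefore also given after every mouse was brought to the same median gene (median scaling). That scaling moved the median log2 difference of all tested genes from 0.21 to -0.03 for allo-WT minus syngeneic, from -0.72 to 0.17 for allo-MCd minus allo-WT, and from -0.59 to 0.06 for allo-MCd minus syngeneic.

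Compared to syngeneic skin, allo-WT skin carried far more transcript of the calgranulins S100a8 and S100a9, of the receptors Cxcr2 and Csf3r, and of the ligand Cxcl5. The ligand Cxcl1 rose less. Its value in allo-WT mouse 2 was 66.9, beside 64.0 in syngeneic mouse 3, and its call was lost without allo-WT mouse 1. These 6 of the 8 genes rose, 4 of them neutrophil genes and 2 ligands, in limma on log2(value + 1) with a Benjamini-Hochberg adjusted p of at most 0.05. Over all 696 tested genes, 28.3% rose by the same rule. All 8 genes passed the filter on low values, Elane with the 3 mice it needs, 2 of them allo-WT. The same 6 rose after median scaling, where 24% of all genes did. In 7 of the 8 genes the lowest allo-WT value exceeded the highest syngeneic value, against 33.6% of all tested genes, and Elane was the exception. The methods' test on the untransformed values, which carries no log scale, called only Csf3r of the 8, with or without Benjamini-Hochberg adjustment, where 19.5% and 28.3% of all tested genes rose by it.

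**Figure D1:**
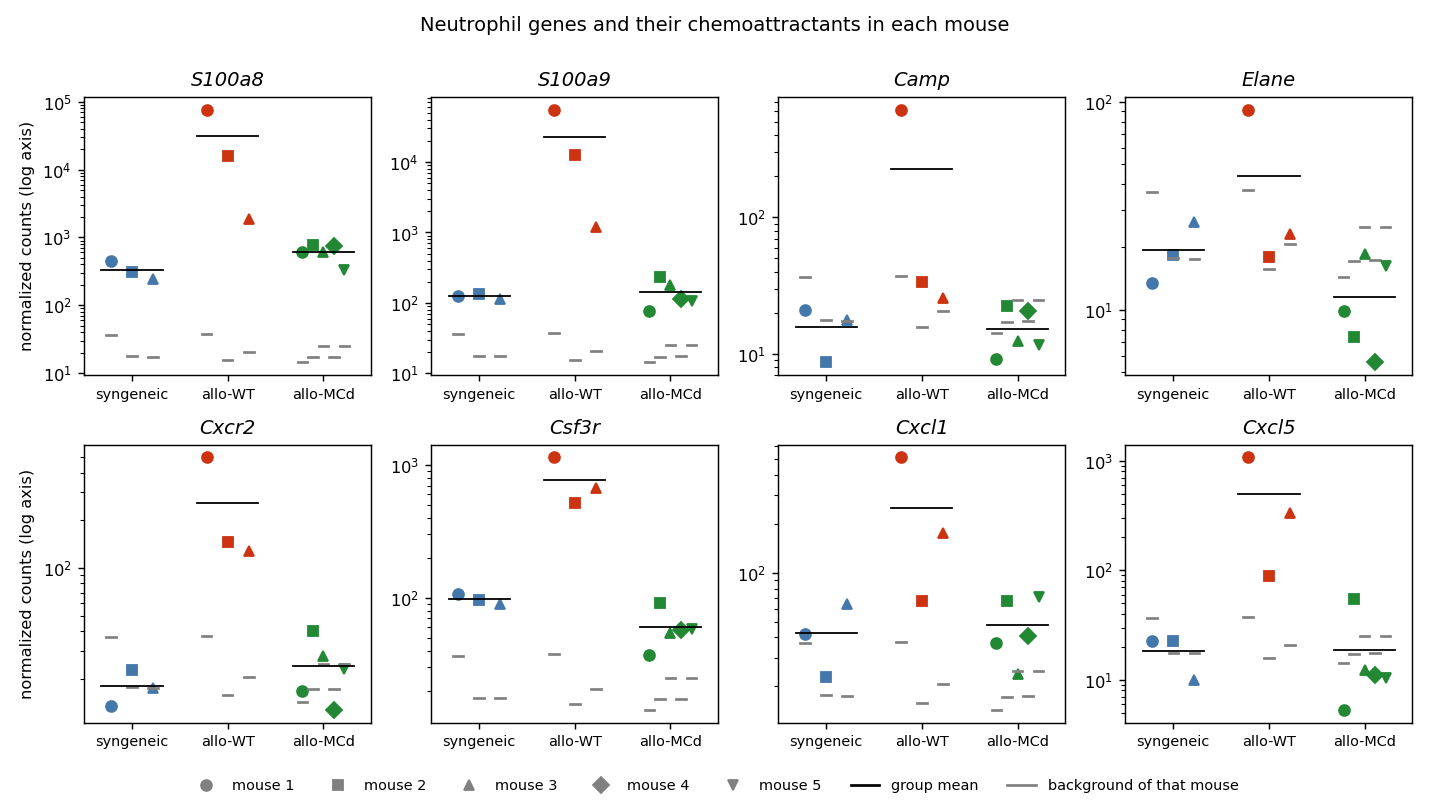
Normalized counts of the 8 genes in each mouse, on a log axis with its own range in each panel. Symbols are mice, black lines are group means and grey ticks the background of that mouse, and in every panel allo-WT mouse 1 is the highest of the 11 mice.

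S100a8 and S100a9 encode the subunits of calprotectin, a metal-binding protein that is abundant in the neutrophil cytoplasm. S100a8 was at 449, 314 and 243 normalized counts in syngeneic mice 1 to 3, at 76492, 16077 and 1892 in allo-WT mice 1 to 3, and at 601, 781, 601, 755 and 330 in allo-MCd mice 1 to 5. Every allo-WT mouse lay above all others, but the 3 allo-WT mice spanned a 40.4-fold range, while the syngeneic mice spanned 1.85-fold and the allo-MCd mice 2.37-fold. S100a8 was higher by 5.35 on the log2 scale (SE 0.95) in allo-WT than in syngeneic skin, with a limma adjusted p of 0.00114. In allo-MCd skin it was lower than in allo-WT skin, at -4.49 (SE 0.85, limma adjusted p = 0.000665). After median scaling these differences were 5.11 and -3.59, and both passed. The fit takes 1 spread per gene for all groups. The SD of log2 values of S100a8 was 2.68 in allo-WT, 0.44 in syngeneic and 0.50 in allo-MCd mice. For S100a9 it was 2.79, 0.11 and 0.63, and for each of the other genes it was also largest in allo-WT mice. The SEs and p-values of comparisons with allo-WT mice may therefore understate the error.

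S100a9 ranked the allo-WT mice in the same order as S100a8. It was at 126, 132 and 114 normalized counts in syngeneic mice, at 55154, 12612.5 and 1188 in allo-WT mice and at 75.9, 229.9, 179, 115 and 108 in allo-MCd mice. The syngeneic and allo-MCd values overlapped, and the allo-WT values again lay apart from both, over a 46.4-fold range. The log2 difference was 6.24 (SE 0.99) for allo-WT minus syngeneic, with a limma adjusted p of 0.000569. For allo-MCd minus allo-WT it was -6.15 (SE 0.89, limma adjusted p = 8.77e-05), and -5.26 after median scaling.

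The partners were measured at a steadier ratio than level in allo-WT skin. Within a mouse, normalized counts of S100a8 over those of S100a9, a ratio between different probes, lay between 1.27 and 1.59 in the allo-WT mice, between 2.14 and 3.57 in syngeneic mice and between 3.05 and 7.91 in allo-MCd mice, with no overlap between allo-WT mice and the rest. Together the pair took 6.24% of all counts recovered in allo-WT mouse 1 (exact 95% Clopper-Pearson interval 6.19 to 6.30), 1.68% in mouse 2 (1.66 to 1.70) and 0.165% in mouse 3 (0.159 to 0.172). In syngeneic mice the share was 0.0235% to 0.0357%, and in allo-MCd mice 0.0358% to 0.107%. These intervals cover counting error only and do not measure the spread between mice.

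Cxcr2, the receptor for both ligands, and Csf3r, the receptor for granulocyte colony-stimulating factor, showed the closest agreement between the allo-WT mice among the 8 genes. Csf3r was at 108, 96.3 and 89.3 normalized counts in syngeneic mice, at 1143, 514 and 668 in allo-WT mice, and at 37.2, 90.9, 54.8, 57.4 and 58.7 in allo-MCd mice. The allo-WT mice lay within 2.23-fold of each other and none came near the other groups. Csf3r had a log2 difference of 2.90 (SE 0.36) for allo-WT minus syngeneic, with a limma adjusted p of 0.000167, and of -3.65 (SE 0.32) for allo-MCd minus allo-WT, with a limma adjusted p of 2.43e-06.

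Cxcr2 was near background outside the allo-WT group. Its values were 13.5, 22.7 and 17.6 normalized counts in syngeneic mice, 499, 146 and 128 in allo-WT mice and 16.7, 39.9, 27.9, 12.8 and 23.0 in allo-MCd mice. Above the background of their own mouse were 2 of 3 syngeneic, 3 of 3 allo-WT and 3 of 5 allo-MCd values, so the low side of each comparison was measured poorly. The log2 difference was 3.51 (SE 0.53) for allo-WT minus syngeneic, with a limma adjusted p of 0.000427. It was -3.18 (SE 0.48) for allo-MCd minus allo-WT, with a limma adjusted p of 0.000122, and both receptors passed in both comparisons after median scaling too.

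Camp and Elane were high in one allo-WT mouse, with the other two near the rest. Camp, which encodes the antimicrobial peptide cathelicidin, was at 21.0, 8.65 and 17.6 normalized counts in syngeneic mice, at 616, 33.4 and 25.6 in allo-WT mice, and between 9.11 and 22.3 in allo-MCd mice with a median of 12.4. Allo-WT mice 2 and 3 lay just above the highest value of the other groups, and mouse 1 far above it. The log2 difference for allo-WT minus syngeneic was 2.39 (SE 0.93) and missed the threshold, with a limma adjusted p of 0.0565 (0.0675 at 2.14 after median scaling). For allo-MCd minus allo-WT it was -2.43 (SE 0.84, limma adjusted p = 0.0241), and it was -1.56 after median scaling, where the limma adjusted p was 0.109.

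Elane encodes neutrophil elastase, a serine protease of the primary granules. It was at 13.5, 18.4 and 26.5 normalized counts in syngeneic mice, at 91.3, 17.9 and 23.0 in allo-WT mice and between 5.58 and 18.6 in allo-MCd mice, with a median of 9.87. Only allo-WT mouse 1 stood apart, and no allo-MCd value exceeded the background of its mouse. Allo-WT minus syngeneic was 0.81 (SE 0.60, limma adjusted p = 0.274, 95% confidence interval -0.49 to 2.12), and 0.58 after median scaling (limma adjusted p = 0.368). Allo-MCd minus allo-WT was -1.59 on the measured values (limma adjusted p = 0.0219), and it no longer passed after median scaling (limma adjusted p = 0.185). Against the background of the allo-MCd mice, Elane was at least 1.71-fold higher in allo-WT skin, or at least 1.05-fold without allo-WT mouse 1, and with values raised to background it did not pass (limma adjusted p = 0.166).

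Both ligands ranked the allo-WT mice alike, with mouse 1 highest and mouse 2 lowest, as Csf3r and Elane also did. Cxcl5 was at 22.5, 22.7 and 9.92 normalized counts in syngeneic mice, at 1072, 88.4 and 331 in allo-WT mice and at 5.32, 54.7, 12.4, 11.2 and 10.4 in allo-MCd mice. The lowest allo-WT mouse still lay above every other mouse, although 1 of 3 syngeneic and 1 of 5 allo-MCd values exceeded background. The log2 difference was 4.12 (SE 0.87) for allo-WT minus syngeneic, with a limma adjusted p of 0.00300, and -4.45 (SE 0.78) for allo-MCd minus allo-WT, with a limma adjusted p of 0.000405. After median scaling both remained past the threshold, at 3.86 and -3.58.

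Cxcl1 moved less and its groups touched. It was at 41.9, 22.7 and 64.0 normalized counts in syngeneic mice, at 515, 66.9 and 175 in allo-WT mice, and at 37.2, 66.8, 23.8, 40.7 and 71.4 in allo-MCd mice. Allo-WT mouse 2 lay within the allo-MCd range and close to the highest syngeneic mouse. Allo-WT minus syngeneic was 2.18 (SE 0.66), with a limma adjusted p of 0.0194. Allo-MCd minus allo-WT was -2.01 (SE 0.59) with a limma adjusted p of 0.0110, and -1.13 after median scaling, where the limma adjusted p was 0.0892. Within a mouse the measured value of Cxcl5 over that of Cxcl1, again different probes, was 1.32 to 2.08 in allo-WT mice, 0.155 to 1 in syngeneic mice and 0.143 to 0.819 in allo-MCd mice, where most Cxcl5 values were not above background.

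In allo-MCd skin all 8 genes fell relative to allo-WT skin, in limma on the deposited scale, where 50% of all tested genes fell. After median scaling 5 of the 8 fell (S100a8, S100a9, Cxcr2, Csf3r and Cxcl5), against 29.5% of all genes, and Camp, Elane and Cxcl1 no longer passed. In 6 of the 8 every allo-MCd mouse lay below every allo-WT mouse, against 46% of all tested genes, and Elane and Cxcl1 overlapped. The methods' test called Cxcr2 and Csf3r without adjustment across genes, where 43% of all tested genes fell, and Csf3r alone after Benjamini-Hochberg adjustment, where 37.1% did. The median log2 difference of the 8 was -3.41 and that of all tested genes -0.72, or -2.53 and 0.17 after median scaling. This comparison and the one with syngeneic mice share the 3 allo-WT mice, so they are not independent of each other. In bulk skin, fewer cells of a type and less RNA per cell cannot be told apart, and the cells that made these transcripts were not identified.

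**Figure D2:**
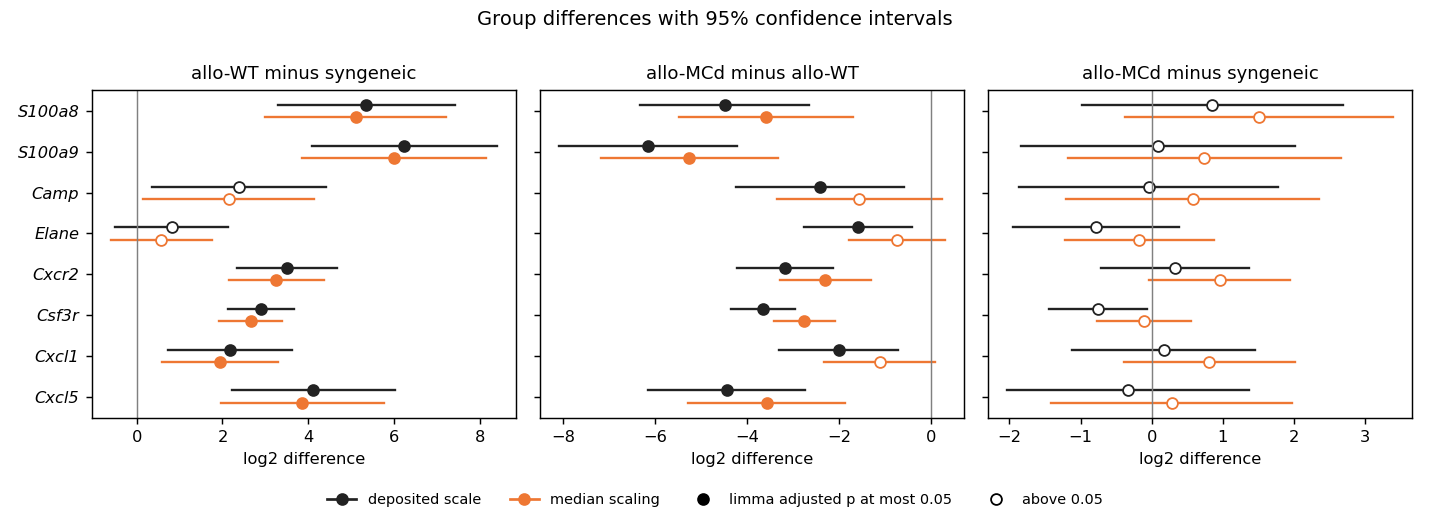
Log2 differences of the 8 genes in the 3 comparisons, as points with 95% confidence intervals from limma, on the deposited scale (black) and after median scaling (orange); filled points have an adjusted p of at most 0.05. S100a8, S100a9, Cxcr2, Csf3r and Cxcl5 are filled on both scales in both comparisons with allo-WT mice, and no point is filled for allo-MCd minus syngeneic.

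Between allo-MCd and syngeneic skin none of the 8 genes passed in limma on either scale. Over all tested genes, 41.5% changed in one direction or the other on the deposited scale and 28.3% after median scaling. Camp, Elane, Cxcr2 and Cxcl5 were near background in both groups, so a fall in them could not be measured well. For these genes the lack of a call says little. Csf3r had an unadjusted limma p of 0.0357, the only one under 0.05 among the 8. The methods' test called 0 of the 8. Over all 696 tested genes it called 30 higher and 181 lower, or 14 and 65 with Benjamini-Hochberg adjustment. Csf3r was at -0.75 (95% confidence interval -1.45 to -0.06, limma adjusted p = 0.0736), and after median scaling at -0.10. Without allo-MCd mouse 2, the highest of its group, Csf3r passed with a limma adjusted p of 0.0400. S100a8 was at 0.86 with an interval of -0.99 to 2.70 (limma adjusted p = 0.421), and it passed when the fit held only these groups (adjusted p = 0.0402), leaving out the wide spread of the allo-WT mice. Its median was 601 in allo-MCd and 314 in syngeneic mice, with 4 of 5 allo-MCd mice above every syngeneic mouse. The intervals for the other genes also reached past 1 on the log2 scale in at least 1 direction, as for S100a9 (-1.84 to 2.02) and Cxcl5 (-2.03 to 1.37), so a difference of that size in that direction is not excluded for them.

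Exact two-sided permutation tests on the mice of each pair of groups gave the smallest p they can give wherever the groups did not overlap. That p was 0.1 for 3 mice against 3, which cannot reach 0.05, and 0.0179 for 3 against 5. For allo-WT against syngeneic mice, 7 genes reached the exact p of 0.1 and Elane had an exact p of 0.5. For allo-MCd against allo-WT mice, Elane had an exact permutation p of 0.0536 and Cxcl1 of 0.0357, and the other genes reached 0.0179. S100a8 had an exact permutation p of 0.0714 between allo-MCd and syngeneic mice.

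All 3 allo-WT mice were above the syngeneic mean for 7 of the 8 genes, with mouse 2 at 0.921-fold for Elane, but they differed widely in size. Mouse 1 was the highest for all 8 genes, at 228-fold the syngeneic mean for S100a8, 446-fold for S100a9, 58.4-fold for Cxcl5, 39.1-fold for Camp, 27.8-fold for Cxcr2, 12-fold for Cxcl1, 11.7-fold for Csf3r and 4.69-fold for Elane. Of the syngeneic values behind these folds, only 1 of 3 was above background for Cxcl5 and Camp and 2 of 3 for Cxcr2 and Elane, so their size is uncertain. Mice 2 and 3 did not keep a common order. Mouse 2 exceeded mouse 3 for S100a8, S100a9, Camp and Cxcr2, and mouse 3 exceeded mouse 2 for both ligands, Csf3r and Elane. Mouse 2 thus held 101.9-fold the syngeneic mean of S100a9 with only 1.56-fold of Cxcl1 and 4.81-fold of Cxcl5, while mouse 3 held 9.60-fold of S100a9 with 4.08-fold of Cxcl1 and 18.0-fold of Cxcl5.

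**Figure D3:**
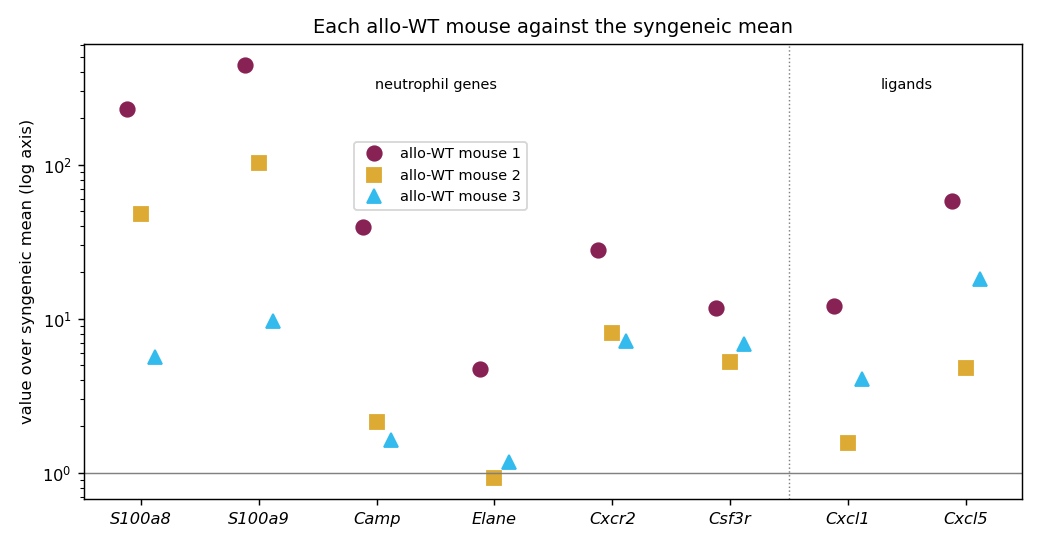
Normalized counts of each allo-WT mouse divided by the mean of the 3 syngeneic mice, on a log axis, with the neutrophil genes left of the dotted line and the ligands right of it. The grey line marks the syngeneic mean, and mouse 2 is above mouse 3 for S100a8, S100a9, Camp and Cxcr2 and below it for Elane, Csf3r, Cxcl1 and Cxcl5.

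Mouse 1 was also the mouse with the weakest positive control and the largest factor, and the part of that in its values was not tested. Without it, 5 of the 7 genes still tested rose from syngeneic to allo-WT (S100a8, S100a9, Cxcr2, Csf3r and Cxcl5), against 24.2% of all genes, and the same 5 fell from allo-WT to allo-MCd, against 43.6%. Elane was then no longer tested, having too few values of at least 20. Cxcl1 was at 1.43 (limma adjusted p = 0.0788) for allo-WT minus syngeneic and at -1.27 (limma adjusted p = 0.0690) for allo-MCd minus allo-WT without that mouse. Camp was at 0.94 and -0.98 without it and passed in neither. Without allo-WT mouse 2 or mouse 3 instead, Camp passed against syngeneic skin, at 3.02 and 3.21.

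The size of the calgranulin difference also rested on single mice. For allo-WT minus syngeneic, S100a8 was at 4.08 without allo-WT mouse 1 and at 6.75 without mouse 3, and S100a9 at 4.96 and 7.73. For allo-MCd minus allo-WT, S100a8 was at -3.23 and -5.90 and S100a9 at -4.87 and -7.64 without the same mice. Cxcl5 was at 3.24 without allo-WT mouse 1 and at 5.03 without mouse 2 against syngeneic skin. Csf3r stayed between 2.57 and 3.15 whichever mouse was left out, and Cxcr2 between 2.89 and 3.87.

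Other genes of the same pathway were counted from lists of granule, surface, ligand and NADPH oxidase genes, of which 41 were on the panel and 34 were tested. The lists too were chosen with earlier results of these data known. From syngeneic to allo-WT skin, 19 rose and 1 fell, where 28.3% of all tested genes rose. From allo-WT to allo-MCd skin 29 fell and none rose, or 25 fell and 3 rose after median scaling, where 50% and 29.5% of all tested genes fell. Mmp8 and Trem1 entered the test only through their allo-WT values, and without them 17 of 32 rose and 27 of 32 fell in these comparisons. Values of single genes below are on the deposited scale. From syngeneic to allo-MCd skin 18 fell, against 36.9% of all tested genes, and 9 fell after median scaling, against 11.5%.

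Of 5 tested granule and maturation genes, 3 rose in allo-WT skin and 4 fell in allo-MCd relative to allo-WT skin, where 28.3% and 50% of all tested genes did. After median scaling the counts were also 3 and 4, against 24% and 29.5% of all genes, and without Mmp8 they were 2 and 3 of 4 on either scale. Without Mmp8 the list medians on the deposited log2 scale were 1.57 and -2.17, beside 0.21 and -0.72 for all genes. Chil3, which encodes a chitinase-like protein of myeloid cells, was at 2474, 2970 and 303 normalized counts in allo-WT mice and at no more than 54.1 in any other mouse, a log2 difference of 6.07 (SE 1.10, limma adjusted p = 0.00126) against syngeneic mice. Only 1 of 3 syngeneic and 1 of 5 allo-MCd values of Chil3 were above background. Mmp8, the neutrophil collagenase, was at 555, 160 and 25.6 in allo-WT mice and at or below background in every syngeneic and allo-MCd mouse. It was at least 5.67-fold and 6.57-fold higher in allo-WT skin, or 2.78-fold and 3.22-fold without allo-WT mouse 1. Ctsg, which encodes the granule protease cathepsin G, was at 147, 107 and 54.9 in allo-WT mice, above every other mouse, with 1 of 3 syngeneic and 2 of 5 allo-MCd values above background. Its differences of 2.19 and -2.47 in these comparisons both passed (limma adjusted p = 0.00197 and 0.000159), whereas Mmp9, a gelatinase, was at 0.48 (limma adjusted p = 0.387) and -1.86 (limma adjusted p = 0.00166).

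Of 16 tested surface and receptor genes, 12 rose and 1 fell in allo-WT relative to syngeneic skin, and 15 fell in allo-MCd relative to allo-WT skin, where 28.3% of all tested genes rose and 50% fell. After median scaling 12 rose and 1 fell in the first comparison, and 14 fell and 1 rose in the second, where 24% of all genes rose and 29.5% fell. Without Trem1, 11 of 15 rose in the first and 14 of 15 fell in the second on the deposited scale. Without Trem1 the list medians were 1.14 and -2.83 on that scale. Among them the formyl peptide receptor Fpr2 was at 3.73 and -4.90, its relative Fpr1 at 2.76 and -4.26 and the Fc receptor Fcgr4 at 3.59 and -4.63, with a limma adjusted p of at most 0.05 for each. For Fpr1 only 2 of 3 syngeneic and 1 of 5 allo-MCd values were above background, so the size of its differences is uncertain. Trem1, an activating receptor of myeloid cells, was at 147, 31.1 and 24.3 in allo-WT mice and at or below background in all others. It was at least 2.10-fold and 2.43-fold higher in allo-WT skin, or 1.21-fold and 1.40-fold without allo-WT mouse 1. With values raised to background its difference from syngeneic skin did not pass (limma adjusted p = 0.140). Fcgr3, another Fc receptor, was at 1.59 and -3.09. Many of these receptors are shared with monocytes and macrophages. The gene that fell, named after its values were seen, was Il1r2, a decoy receptor for interleukin 1, at -1.65 (limma adjusted p = 0.000383).

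**Figure D4:**
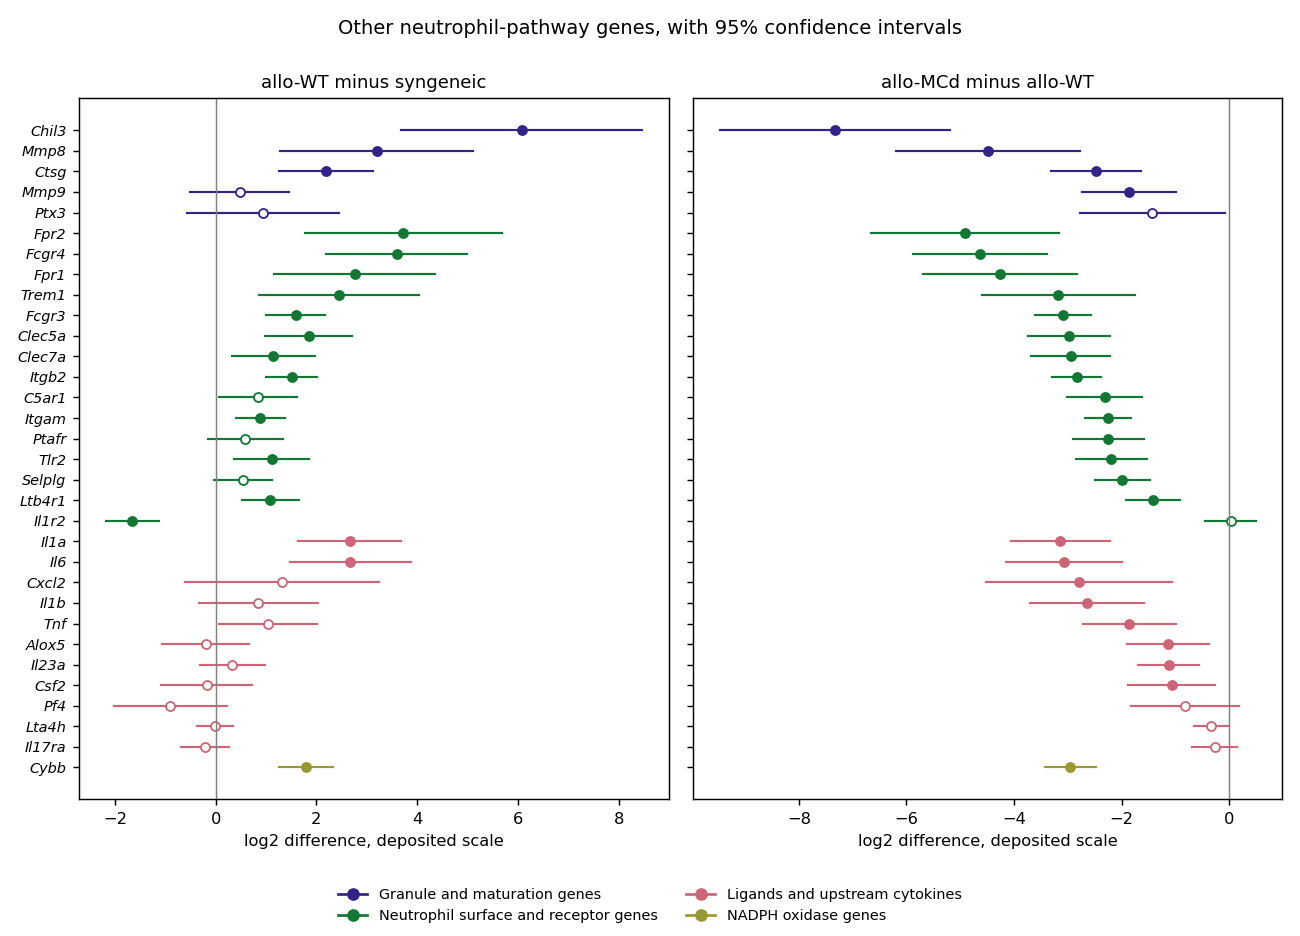
Log2 differences of 32 of the 34 tested pathway genes with 95% confidence intervals from limma on the deposited scale, coloured by list; filled points have an adjusted p of at most 0.05. From syngeneic to allo-WT skin 17 genes are filled to the right of 0 and 1 (Il1r2) to the left, and from allo-WT to allo-MCd skin 27 are filled, all to the left.

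Among the other ligands and the cytokines upstream of them, 2 of 11 rose in allo-WT skin and 8 fell in allo-MCd relative to allo-WT skin, where 28.3% of all tested genes rose and 50% fell, with list medians of 0.33 and -1.14 beside 0.21 and -0.72 for all genes. After median scaling 5 of the 11 fell and 2 rose in allo-MCd skin, where 29.5% of all genes fell. The genes that rose in allo-WT skin were the alarm cytokine Il1a, at 2.66 (limma adjusted p = 0.00114), and Il6, at 2.67 (limma adjusted p = 0.00262). Cxcl2, another ligand of Cxcr2, was at 49.4, 13.0 and 52.9 normalized counts in syngeneic mice and at 451, 45.4 and 26.8 in allo-WT mice, so only allo-WT mouse 1 lay above the syngeneic mice. The difference of 1.31 did not pass (limma adjusted p = 0.233), and relative to allo-MCd skin, where no value was above background, Cxcl2 was at least 4.12-fold higher in allo-WT skin, or at least 1.77-fold without allo-WT mouse 1. That comparison passed on the measured values and with values raised to background (limma adjusted p = 0.00891 and 0.0283). Il1b and Tnf, which induce these chemokines, were at 0.84 and 1.04 against syngeneic skin, and neither passed (limma adjusted p = 0.215 and 0.0723). Both fell in allo-MCd relative to allo-WT skin, at -2.64 and -1.85 (limma adjusted p = 0.000563 and 0.00155). Cybb, which encodes the catalytic subunit of the phagocyte NADPH oxidase, rose in allo-WT skin, at 1.80, and fell in allo-MCd relative to allo-WT skin, at -2.95.

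The 7 pathway genes left untested for low values were Mpo, Fcnb, Cxcr1, Ly6g, Cxcl3, Csf3 and Hc. Ly6g, the surface antigen that defines mouse neutrophils, was at 93.8, 19.1 and 20.4 normalized counts in allo-WT mice 1 to 3, with backgrounds of 37.5, 15.7 and 20.7, and at no more than 18.4 in any other mouse, that highest value being in syngeneic mouse 2 with a background of 17.7. Mpo, the myeloperoxidase of primary granules, was at 109 in allo-WT mouse 1 and at no more than 22.5 elsewhere. Cxcl3 was at 198 in that mouse, at 15.5 and 17.9 in allo-WT mice 2 and 3 and at no more than 18.7 elsewhere. The defining neutrophil marker was therefore clearly above background in 1 of the 3 allo-WT mice, and just above it in mouse 2.

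Markers of other cells also differed between the groups. Of the 9 macrophage and monocyte markers on the panel, 5 rose in allo-WT skin, where 28.3% of all tested genes did, and the summed level of the 9 was 28064 to 46304 normalized counts in allo-WT, 16814 to 19200 in syngeneic and 4824 to 9419 in allo-MCd mice. All 9 fell in allo-MCd relative to allo-WT skin (50% of all genes) and 8 relative to syngeneic skin (36.9%). After median scaling 8 and 3 of the 9 markers fell, against 29.5% and 11.5% of all genes. None of the 8 neutrophil and ligand genes passed between allo-MCd and syngeneic skin, where Camp, Elane, Cxcr2 and Cxcl5 were near background. The 4 eosinophil markers summed to 1103, 223 and 1990 in allo-WT mice 1 to 3, to 103 to 120 in syngeneic mice and to 113 to 197 in allo-MCd mice, and Epx was not above background in either of the last groups. Mast cell markers, 7 on the panel, summed to 2397 to 14802 in allo-WT, 3851 to 9348 in syngeneic and 139 to 656 in allo-MCd mice, with Kit and Ms4a2 at background in all allo-MCd mice. The only keratinocyte marker on the panel was Cdh1, at 3955 to 6371 in allo-WT, 2216 to 4748 in syngeneic and 4652 to 5187 in allo-MCd mice. The 5 fibroblast and matrix markers summed to 12951 to 135370 in allo-WT, 89814 to 189770 in syngeneic and 36983 to 86742 in allo-MCd mice, and the 2 endothelial markers to 385 to 481, 954 to 1541 and 390 to 946. No listed T-cell or red-cell marker was on the panel. The part of these cells in the levels of S100a8, S100a9 and the other members was not tested.

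Over the 11 mice, each gene was matched to the genes whose mean-centred log2 profile lay nearest, by the mean absolute distance. S100a8 lay nearest to S100a9, at 0.66 on the log2 scale, and S100a9 to the collagenase gene Mmp13, at 0.53. Csf3r lay nearest to the chemokine genes Ccl8 and Ccl12, both at 0.24, and Cxcr2 to Ptgs2, at 0.35. Cxcl1 lay nearest to Il6, at 0.45, and Cxcl5 to Csf3r, at 0.71. Camp lay nearest to Saa1, at 0.52, and Elane to Fgf7, at 0.34. These distances describe 11 mice that share groups, panel and scaling, and genes with a small range lie near many others.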

How the data were processed

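Skin RNA (100 ng a mouse) was run on the NanoString Myeloid Innate Immunity panel. The values deposited are linear signal, namely counts normalized by the authors in nSolver, whose version and settings are not given in the sources used here. The file held 754 genes and 14 control probes. The geometric mean of 20 housekeeping genes was equal within 0.01 in 10 of 11 mice, so the deposited scale is set by them, and they were set aside. The 696 genes that reached 20 in 3 or more mice were compared in limma 3.58.1 (R 4.3.3) on log2(value + 1), a scale that understates the change of low genes, with all 3 groups in 1 fit, an intensity trend and Benjamini-Hochberg adjustment over all tested genes. Calls are at an adjusted p of at most 0.05. Dividing each mouse by its factor left 99.9% to 100% of values within 0.03 of a whole count, which gave the depth. Pairs of mice within a group differed by more than sampling noise (chi-square per degree of freedom 35.9 to 408). For separate mice this shows only that no column repeats another. At this depth counting error is small beside the spread between mice except near background. The fit was tested on simulated data with the same spread in every group, which does not cover genes whose spread differs between groups. Permutation tests were exact and two-sided, over 20 or 56 arrangements. Python 3.11.15, numpy 2.4.6, pandas 2.3.3, scipy 1.17.1, statsmodels 0.14.6 and matplotlib 3.10.9 were used.

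The members and lists were chosen with earlier results of these data known. Named genes were the members, up to 6 per list with the largest differences among called genes, except 2 not reported here, and the 2 nearest profiles of each member (the first, or both where tied, is given). All 8 members matched RefSeq symbols, and upstream sequences, from RefSeq on GRCm38.p6, existed for 7. Alternatives were the pseudocount, the filter, quantile normalization, median scaling, a rescaling by the housekeeping genes, values raised to background, the trend, a robust fit, only the groups compared, the methods' 3-group test with Tukey's comparison, the mouse number as a block and each mouse left out. Voom on the recovered counts was chosen after seeing the data. The labels name Trizol for RNA extraction and the methods Ribozol.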

Additional observations from a re-analysis of the deposited data

How the results depend on the processing

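The members were recomputed under 25 other settings, of which Camp passed the filter on low values in 24 and Elane in 21. No single-gene difference that passed changed direction, 542 values kept their side of the threshold, 39 lost it and 4 gained it. For allo-WT minus syngeneic, 6 members rose. The methods' test called 1, with or without Benjamini-Hochberg adjustment (136 or 197 of all 696 genes). Leaving out 1 mouse gave 5 to 7 (160 to 207 of all tested genes). Cxcl1 was also lost in that comparison without syngeneic mouse 2 (1.80, adjusted p = 0.0719) and with only these groups in the fit (adjusted p = 0.0520). For allo-MCd minus allo-WT, 8 members fell (348 of all 696 tested genes). The count was 5 under quantile normalization and 5 under median scaling (205 of all genes in each). It was 2 in the methods' test and 1 with its Benjamini-Hochberg adjustment (299 and 258 of all genes). Leaving out 1 mouse gave 5 to 8 (299 to 360 of all tested genes). Camp was lost there without allo-MCd mouse 1 (-2.28, adjusted p = 0.0519), and Camp and Elane when values were raised to background (-1.91 and -0.77). For allo-MCd minus syngeneic no member was called, against 0 to 1 with 1 mouse left out. With only the groups compared 1 member was called, where 36 of all 696 genes rose and 277 fell. Voom, chosen after seeing the data, left the counts of members in these comparisons at 6, 8 and 0. Over all 696 genes it called 194 higher in the first, 351 lower in the second, and 31 higher and 264 lower in the third.

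Of the pathway genes, 19 rose in allo-WT relative to syngeneic skin, where 197 of all 696 tested genes did. The methods' test adjusted by Benjamini-Hochberg gave 11, against 136 of all genes. Leaving out 1 mouse gave 15 to 21, against 160 to 207 of all tested genes. From syngeneic to allo-MCd skin 18 fell, where 257 of all genes did. The count was 11 under quantile normalization (100 of all genes) and 9 under median scaling (80). It was 10 in the methods' test (181) and 2 with its Benjamini-Hochberg adjustment (65). Leaving out 1 mouse gave 10 to 21 (165 to 311), the lowest without syngeneic mouse 1. From allo-WT to allo-MCd skin 29 fell (348 of all genes), and 25 to 30 with 1 mouse left out (299 to 360).

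Over all tested genes, 197 rose and 104 fell from syngeneic to allo-WT skin, against 167 and 187 under median scaling. From allo-WT to allo-MCd skin 76 rose and 348 fell, against 259 and 205, and from syngeneic to allo-MCd skin 32 rose and 257 fell, against 117 and 80.

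Same-numbered mice of different groups deviated with correlations of -0.11 to 0.21, and mice with different numbers with -0.22 to 0.29. The mouse numbers thus showed no pairing, but a shared transplant or run is not excluded by these values. With mouse number as the replicate block, 6 members and 20 pathway genes rose in allo-WT skin, where 188 of all 696 tested genes did. In allo-MCd relative to allo-WT skin 6 members (Camp and Elane did not pass) and 28 pathway genes fell, where 324 of all genes did. Between allo-MCd and syngeneic skin 0 members changed and 17 pathway genes fell, where 26 of all genes rose and 249 fell. Values of Camp, Elane, Cxcr2 and Cxcl5 near background limit what the syngeneic and allo-MCd groups can show. The causes of these changes were not tested.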
